A study of Mus musculus with 23 samples.

Results

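The comparison described here set the hippocampus of female mouse pups with severe anemia against that of female pups with moderate anemia. Its members were the 4 libraries labelled sPIA Female and the 4 labelled mPIA Female, 8 of the 23 libraries of the series, and all 15475 genes that passed a filter on low counts. Libraries were assigned by their labels alone. PIA stands for phlebotomy-induced anemia, in which blood was drawn repeatedly from newborn pups.

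Both groups were bled from the facial vein from postnatal day 3, 2 times daily by 5.25 µl per g, until a goal hematocrit was reached, and then by 3.5 µl per g once a day. Hematocrit is the fraction of the blood that red cells occupy. The goal was 25% in mPIA and 18% in sPIA, and no hematocrit measured in single pups was used here. Pups were killed on postnatal day 14, and polyadenylated RNA of the dissected hippocampus was sequenced. The labels name no strain, mutation or transgene for any group. Non-bled controls (NBC), pricked with a needle at the back of the neck, and the male groups were used for reference: 4 NBC females, 3 NBC males, 4 mPIA males and 4 sPIA males. The design text describes 4 males and 4 females per group, and each library was taken to be 1 pup. Whether littermates were split between groups was not given in the sources used here.

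Anemia lowers the delivery of oxygen to the brain and, through the loss of red cell iron, the supply of iron for developing neurons. In the rodent hippocampus the second week after birth is a time of dendrite growth, synapse formation and rising energy use, which rest on iron-containing respiratory enzymes. Cells short of oxygen stabilize hypoxia-inducible factors (HIF), which switch on genes of glycolysis and of vessel growth, and iron shortage raises the transferrin receptor through its messenger RNA.

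Library totals were 16.5 to 21.5 M (mega-counts, counts divided by 1000000) in the 8 libraries, except for mPIA female 3 with 44.4 M. The series of the library code coincided with the group. All 4 mPIA females and all 4 NBC females carry a code that starts with a number. All 4 sPIA females carry a code that starts with P, as do the sPIA males and the NBC males. Codes of mPIA males start with M. The starting numbers were 86, 86, 90 and 91 in the mPIA females and again in the NBC females, so mPIA females 1 and 2 share a prefix. NBC males 2 and 3 carry the prefixes P13 and P14, as do sPIA females 3 and 4. Each code also carries an S number, which splits the compared libraries by severity as well. Moderate anemia has the S numbers 50, 51, 53 and 55, and severe anemia has 17, 18, 19 and 20. Severity, code series and S number therefore cannot be told apart within females. What the code and the S number stand for is not given in the labels. A principal component analysis of these libraries separated the groups along its leading axis (32.3% of variance), and the next axis (18.8%) had sPIA females 2 and 3 at opposite ends. The biological coefficient of variation, edgeR's measure of spread between replicates, was 6.85% in mPIA females and 13.3% in sPIA females. Xist, the RNA of the inactive X chromosome, was present in all 8 libraries, at 992, 1215, 1154 and 1149 CPM (counts per 1000000 counts of the library after TMM scaling) in mPIA and 1107, 1158, 1341 and 1510 CPM in sPIA. Defining genes of the tissue were present in both groups, with Slc17a7, the vesicular glutamate transporter of excitatory neurons, at 1614 CPM in mPIA and 1712 CPM in sPIA, and Prox1, the transcription factor of dentate granule cells, at 80.7 and 110 CPM (adjusted p = 0.458 and 0.141).

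Libraries of severely and moderately anemic females differed in many genes, mostly by small amounts. Of the 15475 genes, 2499 passed edgeR's quasi-likelihood test at a Benjamini-Hochberg adjusted p of 0.05, a share of 16.1%. Of these, 1341 were higher in sPIA (8.67% of the genes) and 1158 lower (7.48%). Most differences were small, with a median size of 0.35 on the log2 scale, while 150 genes were at least 1.5-fold higher and 275 at least 1.5-fold lower. The falls reached further than the rises: 95 genes were at least 2-fold lower and 23 at least 2-fold higher. The count of called genes was 1582 without mPIA female 1 and 1673 without sPIA female 3, with 1576 and 1610 of them among the 2499. The count of lower genes alone was 677 without mPIA female 1, 755 without mPIA female 2 and 707 without sPIA female 3.

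Genes of deep cortical and subicular neurons gave the deepest falls. The subiculum, which borders the hippocampus, and the deep layers of the cortex beside it share many of these markers. Of the 27 genes of this list 9 were lower in sPIA and 2, Hs3st4 and Rorb, higher (40.7% called, against 16.1% of all genes). The median log2 change was -0.24 against 0.00 over all genes. With any single library left out 7 to 9 were lower and 1 to 3 higher. Nxph3 (chr11:95509845-95514570, minus strand, positions on mm10), which encodes the neurexin ligand neurexophilin 3 of deep-layer neurons, had 33, 29.6, 27.8 and 29 CPM in the 4 mPIA females and 1.86, 3.04, 1.96 and 4.88 CPM in the 4 sPIA females. Every sPIA library lay far below every mPIA library, and the mean was 10.3-fold lower (log2 change -3.36, SE 0.59, adjusted p = 0.00101). Nts (chr10:102481756-102490486, minus strand), which encodes the neuropeptide neurotensin, had 24.6, 24.6, 23.7 and 21.6 CPM in mPIA and 1.48, 5.22, 1.91 and 2.53 CPM in sPIA. It fell by 3.07 on the log2 scale (SE 0.59, adjusted p = 0.00178), and the groups did not overlap. Tshz2 (chr2:169633013-170071816, plus strand), a zinc finger transcription factor, had 133, 89.8, 67.3 and 61 CPM in mPIA and 10.6, 21.6, 9.52 and 8.03 CPM in sPIA. Its mPIA values spread more than those of Nxph3, yet its lowest mPIA library was well above its highest sPIA library (log2 change -2.81, SE 0.68, adjusted p = 0.00886).

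The complexin gene Cplx3, a presynaptic gene of the deepest cortical layer, fell from 7.49 ± 2.3 CPM in mPIA to 1.29 ± 0.298 CPM in sPIA (mean ± SD, n = 4 each, adjusted p = 0.00117). Fezf2 (chr14:12342094-12348189, minus strand), the transcription factor that specifies deep-layer projection neurons, had 54.5, 52.5, 54.9 and 57.4 CPM in mPIA and 24.7, 26.2, 19.6 and 27.2 CPM in sPIA. These 2 sets of values were tight and lay apart (log2 change -1.17, SE 0.14, adjusted p = 8.58e-06). Nr4a2 (chr2:57106830-57124003, minus strand), a nuclear receptor found in the claustrum, subiculum and deepest cortical layer, had 37.8, 43.7, 40 and 43.1 CPM in sPIA. Its mean was 2.1-fold higher in mPIA, with 82.5 CPM in the lowest library and no overlap (log2 change -1.07, SE 0.18, adjusted p = 0.000628). Among genes outside the list, the relaxin receptor gene Rxfp1 had 25, 23, 21.3 and 16.7 CPM in mPIA and 0.689, 5.31, 0.653 and 2.92 CPM in sPIA (log2 change -3.16, SE 0.81, adjusted p = 0.0127). Vwc2l, Tekt5, Prph, which encodes the intermediate filament peripherin, Rbp4, which encodes the plasma retinol carrier, and Adcyap1, which encodes the neuropeptide PACAP, fell by 2.18, 2.42, 2.00, 1.85 and 1.75 on the log2 scale.

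The summed level of the 27 markers was 2004 to 2099 CPM in mPIA females and 1612 to 1783 CPM in sPIA females, while the 30 markers of hippocampal excitatory neurons summed to 4832 to 4988 CPM and 5083 to 5614 CPM. In a bulk sample fewer cells of a type and less RNA per cell cannot be told apart, and the part that the boundary of the dissection had in these falls was not tested. Single libraries outside the comparison were as low: sPIA male 3 had 2.38 CPM of Nxph3, 2.43 CPM of Nts, 8.05 CPM of Tshz2 and 1.47 CPM of Rxfp1, while the other 3 sPIA males had 11 CPM of Nxph3 or more. NBC male 2 had 4.79 CPM and NBC female 2 had 9.7 CPM of Nxph3. In the 15 libraries outside the comparison the gene ranged up to 34.4 CPM.

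**Figure D1:**
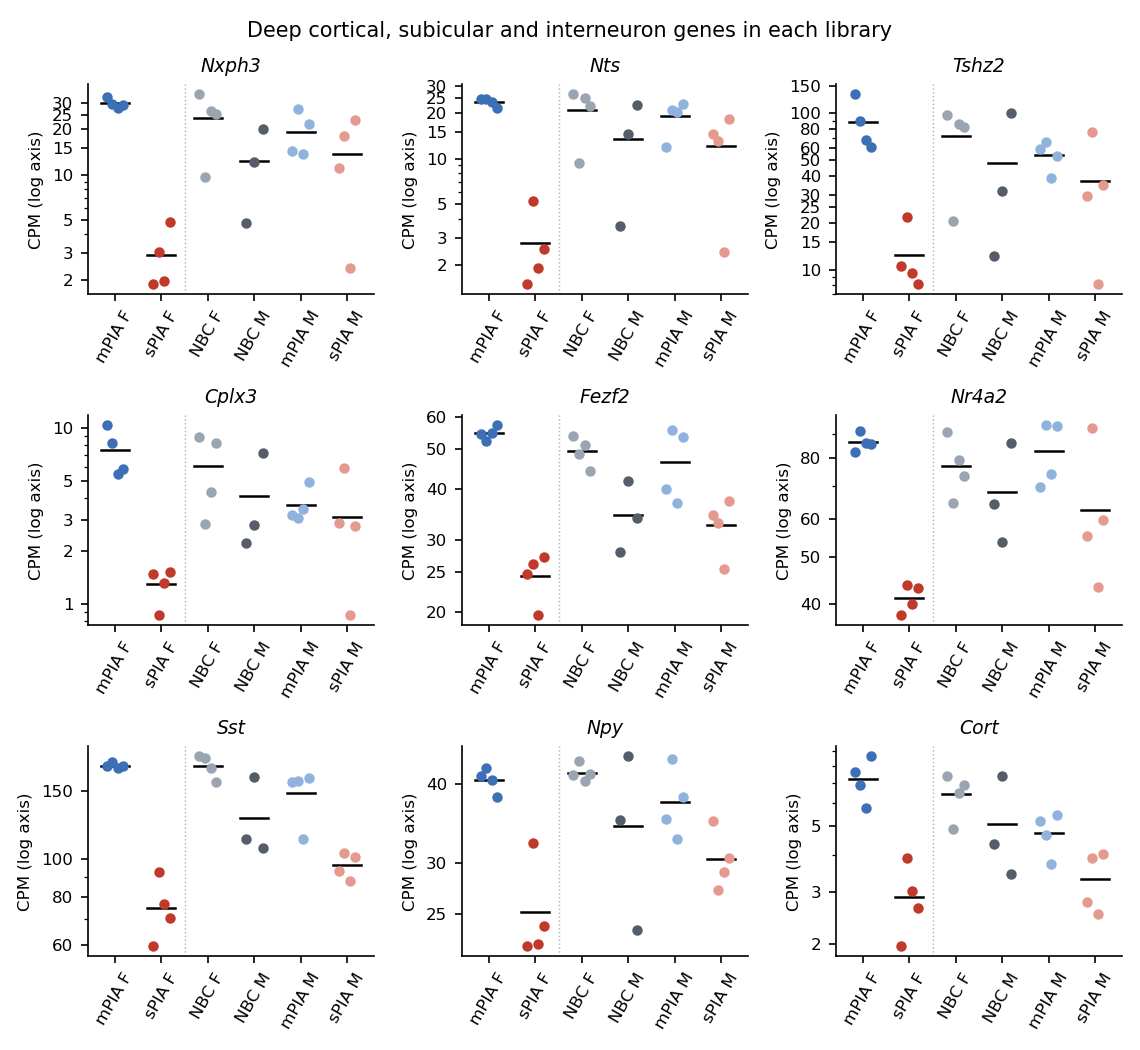
Level of 9 deep cortical, subicular and interneuron genes in each of the 23 libraries, in CPM on a log axis, with 1 point per library and a bar at the group mean (F, female; M, male). The 2 groups compared stand left of the dotted line: in Nxph3 the mPIA females lie at 27.8 to 33 CPM and the sPIA females at 1.86 to 4.88 CPM, while single NBC and male libraries also reach low values.

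Of 32 interneuron markers 9 fell and 3 (Ndnf, Cnr1 and Dlx6os1) rose, a share of 37.5% called against 16.1% of all genes. The median log2 change was -0.30. With any single library left out 7 or 8 fell and 1 to 3 rose (1 without mPIA female 1, mPIA female 3 or sPIA female 3). Sst (chr16:23889573-23890958, minus strand), which encodes somatostatin of dendrite-targeting interneurons, had 174, 178, 172 and 174 CPM in mPIA and 59.4, 92.7, 76.7 and 70.3 CPM in sPIA. All sPIA values were well below the narrow mPIA range (log2 change -1.22, SE 0.13, adjusted p = 8.58e-06). Cort (chr4:149125034-149126763, minus strand), which encodes the related peptide cortistatin, had 7.63, 6.91, 5.75 and 8.64 CPM in mPIA and 1.96, 3.91, 3.03 and 2.64 CPM in sPIA, again without overlap (log2 change -1.31, SE 0.23, adjusted p = 0.00038). Npy, the neuropeptide Y gene, fell from 40.6 ± 1.77 to 25.2 ± 4.79 CPM (mean ± SD, n = 4 each, adjusted p = 0.00116). Lamp5, a marker of neurogliaform cells also placed on the deep cortical and subicular list, fell from 28.7 ± 3.81 to 16.8 ± 1.82 CPM (n = 4 each, adjusted p = 6.59e-05). Of the rises, Ndnf went from 27.3 ± 1.97 to 38.9 ± 7.56 CPM without overlap (n = 4 each, adjusted p = 0.00349). The call of Ndnf was lost with the GC and length trend removed (adjusted p = 0.153).

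Of the 23 genes of GABA synthesis, transport and receptors, 4 fell and 2 rose (26.1% called, against 16.1% of all genes). The median change was 0.00, and 0 rose without mPIA female 1 or mPIA female 3. Slc32a1, the vesicular GABA transporter, had 64, 66.1, 61.7 and 71.3 CPM in mPIA and 51.3, 46, 48.7 and 46.1 CPM in sPIA, a fall by 0.45 on the log2 scale with no overlap (SE 0.08, adjusted p = 0.000314). The receptor subunit genes Gabra3 and Gabrg3 were 1.74-fold and 1.69-fold lower. The genes of the GABA-synthesizing enzymes, Gad1 and Gad2, were chosen for mention after their values were seen: Gad1 had 330 CPM in mPIA and 332 CPM in sPIA (adjusted p = 0.959), and Gad2 had 234 CPM in both (adjusted p = 0.997). Pvalb, the parvalbumin gene of fast-spiking interneurons, likewise chosen, was at -0.20 on the log2 scale (SE 0.20, adjusted p = 0.547).

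Markers of the hippocampal excitatory subfields divided, 8 of 30 higher and 3 lower, with a median of 0.18. Pou3f1, a transcription factor of CA1 pyramidal cells, fell from 52 ± 2.1 to 28.5 ± 7.54 CPM (mean ± SD, n = 4 each, adjusted p = 4.93e-05). Mpped1, another CA1 gene, fell 1.51-fold and Spock1, which encodes a matrix proteoglycan, rose 1.36-fold. Of 41 genes of glutamate receptors and the postsynaptic density 6 were higher and 6 lower (29.3% called, against 16.1% of all genes). Grm4, a presynaptic glutamate receptor, fell by 1.10 on the log2 scale, the kainate receptor subunit gene Grik3 by 0.60 and the NMDA receptor subunit gene Grin3a by 0.62. Within the family of proteins that carry AMPA receptors to the synapse, Cacng2 (stargazin) rose 1.37-fold and Cacng3 fell 1.34-fold. Of 40 potassium channel genes 5 were higher and 9 lower (35% called, against 16.1% of all genes). The higher ones numbered 3 without mPIA female 1, mPIA female 3 or sPIA female 3. Kcnv1 (chr15:45106284-45114920, minus strand), a silent subunit that modifies other potassium channels, had 38.5, 42.4, 41.4 and 49 CPM in mPIA and 70.5, 70.4, 75.4 and 69.8 CPM in sPIA. It had narrow, separate ranges (log2 change 0.74, SE 0.09, adjusted p = 7.91e-06). Kcna1 was 1.31-fold higher, and Kcnt1 and Kcnc4 were 1.7-fold and 1.56-fold lower.

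Among genes that guide and extend neurites, more were called higher than lower. Of 43 axon guidance genes 12 rose and 2 fell (32.6% called, against 16.1% of all genes, median 0.05). Among 17 genes of neurotrophin signalling 6 rose and 0 fell (35.3% called, median 0.13). The 30 genes of dendrite and axon growth had 7 rises and 4 falls (median 0.00), with 2 lower without mPIA female 4 or sPIA female 3. Their share called was also above 16.1%. After the GC and length trend was removed, 9 axon guidance genes rose, 8 of them among the earlier 12, and 2 fell. In that setting 4 neurotrophin genes rose and 1 fell, and 7 growth genes rose and 2 fell. Dcc, the netrin receptor of growing axons, had 60.4, 62.3, 61 and 56.5 CPM in mPIA and 65.7, 92.2, 95 and 88.3 CPM in sPIA. The ranges lay apart, with sPIA female 1 close to the mPIA pups (log2 change 0.51, SE 0.09, adjusted p = 0.000325). Sema5a, a semaphorin, rose 1.45-fold, and Ntng1, a netrin relative that anchors axons of thalamic and entorhinal neurons, fell from 40.7 ± 5.63 to 23.9 ± 1.53 CPM (mean ± SD, n = 4 each, adjusted p = 0.000876). Nrn1 (neuritin), Marcks and Dpysl2, all with roles in neurite growth, rose 1.31-fold, 1.32-fold and 1.3-fold. The 4 genes of the growth list that fell were Marcksl1, Stmn1, Gap43 and Tubb3. Called or not, 15 of its 30 genes had a positive and 15 a negative change.

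Bdnf (chr2:109674700-109727007, plus strand), the neurotrophin of activity-dependent growth, had 43.7, 45.3, 48 and 53.8 CPM in mPIA and 65.6, 67, 77.5 and 61.4 CPM in sPIA. Each sPIA pup was above each mPIA pup (log2 change 0.51, SE 0.11, adjusted p = 0.00205), but the call did not hold once the trend with GC content and transcript length was removed (0.31, adjusted p = 0.0796). Creb1, a transcription factor downstream of neurotrophin receptors, rose from 57.3 ± 4.52 to 82 ± 7.75 CPM (mean ± SD, n = 4 each, adjusted p = 0.000136). Igf1r, the receptor of insulin-like growth factor 1, rose 1.31-fold.

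Of 38 genes of neurogenesis and proliferation 6 rose and 2 fell (21.1% called, against 16.1% of all genes), with a median of 0.20. Without mPIA female 1, 2 or 3 the count that rose was 3, and the falls numbered 0 without mPIA female 1 or sPIA female 4. Neurod1 (chr2:79452521-79456751, minus strand), a transcription factor of newborn granule neurons, had 37.7, 37.8, 38.4 and 44.5 CPM in mPIA and 60.1, 65.4, 85.1 and 72.9 CPM in sPIA. The groups were clearly apart (log2 change 0.84, SE 0.12, adjusted p = 6.61e-05). Nes, the intermediate filament nestin of neural stem cells, had 21.9, 16.9, 19.6 and 17.3 CPM in mPIA and 27.4, 26.5, 36.5 and 32.9 CPM in sPIA (adjusted p = 0.000628). Sox11, a transcription factor of immature neurons, rose from 46.5 ± 1.36 to 71.8 ± 7.45 CPM (n = 4 each, adjusted p = 0.00162). Of 5 replication-dependent histone genes that could be tested, out of 33 listed, 3 rose, among them Hist1h2bc (1.65-fold), and 1 rose without sPIA female 3. These histone genes mostly make messages without a poly(A) tail, which the library type selects against.

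Of 26 astrocyte genes 4 rose and 1 fell (19.2% called, against 16.1% of all genes), and 5 fell without sPIA female 1. Among them were Sox9, a glial transcription factor, at 17.7 ± 1.27 CPM in mPIA and 30.5 ± 2.49 CPM in sPIA (mean ± SD, n = 4 each, adjusted p = 0.000131) and the bicarbonate transporter Slc4a4 1.33-fold higher. Of 25 genes of myelin and mature oligodendrocytes 0 passed in either direction, with a median of 0.00. Of 26 microglia genes 1 passed, Gpr34, and its call was lost without any of 4 libraries (mPIA females 1 and 2, sPIA females 1 and 4, adjusted p up to 0.101) and with the GC and length trend removed (adjusted p = 0.433).

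**Figure D2:**
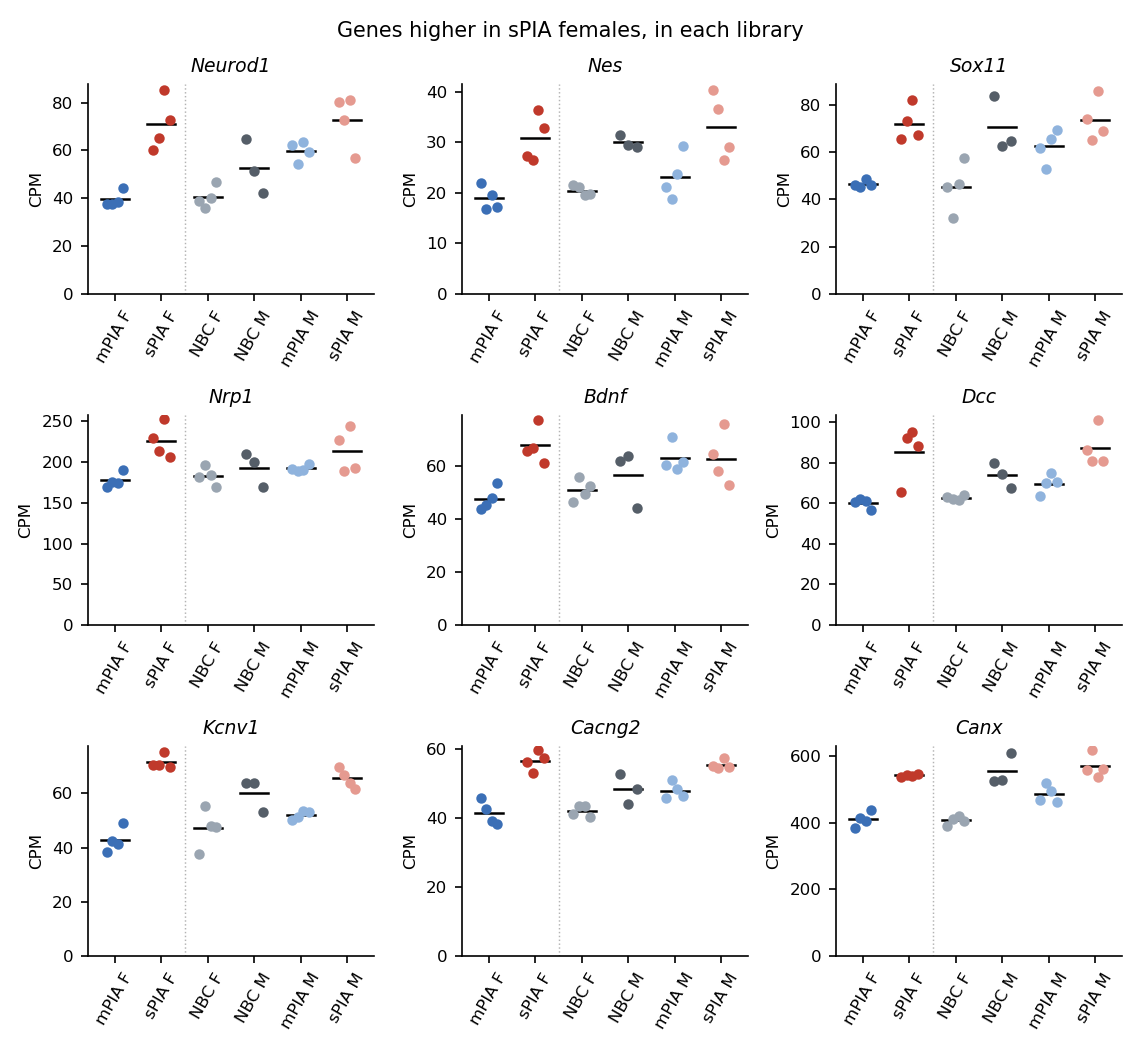
Level of 9 genes that were higher in sPIA females, in each of the 23 libraries, in CPM on an axis that starts at 0, with 1 point per library and a bar at the group mean. Neurod1 lies at 37.7 to 44.5 CPM in mPIA females and 60.1 to 85.1 CPM in sPIA females, and the sPIA males overlap the sPIA females.

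Of 37 hypoxia and HIF target genes 2 rose and 4 fell (16.2% called, median 0.04), a share close to the 16.1% over all genes, and with any single library left out 1 to 4 rose (4 without sPIA female 2). Of 24 glycolysis genes 2 rose and 4 fell (25% called, median -0.05), with 0 higher without mPIA female 1, 2 lower without sPIA female 2, and 3 higher and 1 lower with the GC and length trend removed. The vessel growth factor Vegfa had 116, 120, 116 and 106 CPM in mPIA and 128, 103, 131 and 145 CPM in sPIA, with overlapping groups (log2 change 0.15, SE 0.09, adjusted p = 0.269). With each library left out its change was 0.09 to 0.25, and it passed only without sPIA female 2. Adm, the hypoxia-induced vasodilator peptide adrenomedullin, had 3.62 ± 0.747 and 4.71 ± 1.44 CPM (n = 4 each, adjusted p = 0.254), and the change of the glucose transporter Slc2a1 was -0.22 on the log2 scale (SE 0.12, adjusted p = 0.232). Members that passed included falls of Bhlhe40 and Ndrg1, which low oxygen is known to raise. Bhlhe40 (chr6:108660629-108666925, plus strand), a repressor tied to the clock, had 78.9, 88.2, 85.7 and 87.2 CPM in mPIA and 53, 61.8, 62.3 and 64.8 CPM in sPIA, with no overlap (log2 change -0.49, SE 0.08, adjusted p = 0.000203). Ndrg1 (chr15:66929318-66969640, minus strand), a stress-responsive cytosolic protein, was 1.57-fold lower (adjusted p = 0.000988).

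Among the HIF subunits, Hif1a (chr12:73901375-73947530, plus strand), whose protein rather than message is the usual point of control, had 96.6, 90.5, 95.4 and 111 CPM in mPIA and 116, 131, 139 and 121 CPM in sPIA. It was higher in every sPIA pup (log2 change 0.37, SE 0.07, adjusted p = 0.00109), and the call was lost with the GC and length trend removed (adjusted p = 0.0686). Hif3a, a subunit that can dampen the response, fell from 18.9 ± 3.97 CPM in mPIA to 10.5 ± 4.48 CPM in sPIA (mean ± SD, n = 4 each, adjusted p = 0.0294), with 4.01 CPM in sPIA female 3. Its call was lost without mPIA female 1 (adjusted p = 0.0934) or mPIA female 2 (adjusted p = 0.0879), and with only the groups compared in the fit (adjusted p = 0.134). Eno1, a glycolytic enzyme and HIF target, had 5.97, 5.94, 6.68 and 6.58 CPM in mPIA and 3.61, 2.85, 3.55 and 2.75 CPM in sPIA (adjusted p = 0.00298), and since near-identical copies of this gene exist its count is uncertain. P4ha1, a collagen hydroxylase that needs oxygen and iron, had 59.7, 60.5, 62.1 and 63.1 CPM in mPIA and 80.4, 60.2, 70.7 and 75.1 CPM in sPIA (log2 change 0.22, adjusted p = 0.0372). That call was lost without any of 6 libraries, all but mPIA female 4 and sPIA female 2 (adjusted p 0.0606 to 0.148), and with the GC and length trend removed (adjusted p = 0.283).

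Of the 6 called members of the hypoxia list 3 had an entry in the RefSeq promoter table (GRCm38.p6), and they are printed because the DNA core bound by HIF, ACGTG or GCGTG, can be read in them. Each line gives the 250 bases before the annotated start, 5′ to 3′ along the gene, in lower case with each core in capitals as it or its reverse complement (CACGT or CACGC) stands in the strand shown. Eno1 has several starts, and the window of its second is printed (chr4:150236947-150237196, plus strand). Hif3a is at chr7:17062428-17062677 (minus strand) and P4ha1 at chr10:59323046-59323295 (plus strand).
Eno1: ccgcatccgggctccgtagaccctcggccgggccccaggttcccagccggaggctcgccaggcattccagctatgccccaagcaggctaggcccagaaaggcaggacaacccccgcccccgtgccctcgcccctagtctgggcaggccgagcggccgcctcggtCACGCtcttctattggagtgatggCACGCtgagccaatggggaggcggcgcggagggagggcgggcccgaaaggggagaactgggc
Hif3a: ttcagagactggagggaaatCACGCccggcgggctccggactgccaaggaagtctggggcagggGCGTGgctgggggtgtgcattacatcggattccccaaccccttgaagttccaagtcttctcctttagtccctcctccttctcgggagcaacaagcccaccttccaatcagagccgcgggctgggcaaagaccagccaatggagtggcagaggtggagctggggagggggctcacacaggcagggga
P4ha1: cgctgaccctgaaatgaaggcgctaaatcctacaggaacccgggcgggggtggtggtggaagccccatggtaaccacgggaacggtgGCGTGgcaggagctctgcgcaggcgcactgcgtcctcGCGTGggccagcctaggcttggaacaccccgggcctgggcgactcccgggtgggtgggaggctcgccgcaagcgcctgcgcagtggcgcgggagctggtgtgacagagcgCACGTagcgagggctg
The printed windows of Eno1 and Hif3a hold GCGTG 2 times each, and that of P4ha1 holds GCGTG 2 times and ACGTG 1 time. The clock core CACGTG and the CREB site TGACGTCA were found in none of these. Both strands were searched, and CACGTG contains ACGTG. Over all 32851 windows of 250 bases, 38.6% held ACGTG or GCGTG, 6.02% CACGTG and 1.55% TGACGTCA, so the cores are common letters and a match is a description only.

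Of 31 genes of angiogenesis signalling 3 rose and 0 fell (9.68% called, median 0.13), and 5 rose without sPIA female 2. Of 26 endothelial markers 2 rose and 2 fell (15.4% called, median 0.00), so neither share exceeded the 16.1% over all genes. Kdr, the endothelial receptor of VEGF, had 53.7, 46.7, 54.9 and 50.9 CPM in mPIA and 54.8, 61.6, 67.7 and 70.6 CPM in sPIA. Its groups touched, since sPIA female 1 fell within the mPIA range (log2 change 0.30, SE 0.08, adjusted p = 0.0106). Nrp2, a co-receptor of VEGF and semaphorins, rose 1.3-fold. Its relative Nrp1 rose 1.27-fold (adjusted p = 0.00275), a call lost with the GC and length trend removed (adjusted p = 0.169). Cxcl12, a chemokine of vessels and Cajal-Retzius cells, had 97.8, 88.5, 88 and 89 CPM in mPIA and 127, 103, 99.1 and 121 CPM in sPIA. It missed the threshold (log2 change 0.31, SE 0.12, adjusted p = 0.0808), though the groups did not overlap, and passed by DESeq2 (adjusted p = 0.0406). Mfsd2a, the lipid transporter of the blood-brain barrier, fell 1.45-fold.

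Of 27 genes of iron homeostasis 1 passed, a share of 3.7% against 16.1% over all genes, and 3 passed without mPIA female 4 or sPIA female 1. Iscu (chr5:113772748-113778288, plus strand), the scaffold on which iron-sulfur clusters are built, fell from 36.9 ± 0.8 CPM in mPIA to 26.3 ± 2.91 CPM in sPIA (mean ± SD, n = 4 each), with every sPIA pup below the mPIA pups (log2 change -0.49, SE 0.08, adjusted p = 0.00028). Tfrc, the transferrin receptor, had 322, 281, 333 and 367 CPM in mPIA and 294, 364, 600 and 469 CPM in sPIA. Only sPIA females 3 and 4 stood above the mPIA range (log2 change 0.41, SE 0.25, adjusted p = 0.292). Cpox, an enzyme of heme synthesis, rose 1.35-fold. Of 30 dioxygenases that use iron and oxygen 4 rose and 0 fell (2 rose without sPIA female 3), a share of 13.3% against 16.1% over all genes. Among them was Kdm7a, a histone demethylase, which rose from 70.1 ± 5.67 to 108 ± 10.4 CPM (n = 4 each, adjusted p = 4.73e-05).

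Among nuclear genes of the respiratory chain and ribosomal protein genes, more were called lower than higher. Of 72 tested genes of oxidative phosphorylation 20 fell and 3 rose (31.9% called, against 16.1% of all genes, median -0.15). Cytosolic ribosomal protein genes had 23 of 78 lower and 7 higher (38.5% called, median -0.13). With any single library left out, 15 to 26 ribosomal genes fell and 3 to 7 rose, with 15 lower without mPIA female 3, sPIA female 3 or sPIA female 4 and 3 higher without mPIA female 1. Atp5g1 (chr11:96068852-96075670, minus strand), which encodes the rotor ring subunit of ATP synthase, had 113, 107, 113 and 107 CPM in mPIA and 84, 76.6, 65.9 and 67.9 CPM in sPIA. Its groups were far apart (log2 change -0.58, SE 0.10, adjusted p = 0.000325). Atp5g2, a gene for the same protein, fell 1.66-fold and Cox5b, a subunit of cytochrome oxidase, fell 1.28-fold. Rps12, a protein of the small ribosomal subunit, fell 1.68-fold. Ribosomal protein genes have many near-identical copies in the genome, so their counts are uncertain. In NBC males against NBC females, a comparison with no anemia and none of these 8 libraries but the same split of code series, 16 of the 72 and 22 of the 78 genes were lower. With the GC and length trend removed, 12 fell and 2 rose among the respiratory genes. In that setting 11 ribosomal genes fell and 11 rose, so the excess of falls was not found there.

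Of 29 genes of the unfolded protein and integrated stress response 5 rose and 0 fell (median 0.02). The share called, 17.2%, was close to the 16.1% over all genes. Without mPIA female 4, 8 of 28 rose, where 1384 of all 15467 genes rose. Canx (chr11:50293961-50325673, minus strand), the chaperone calnexin of the endoplasmic reticulum, had 386, 414, 407 and 439 CPM in mPIA and 538, 545, 542 and 547 CPM in sPIA, a narrow and separate set (log2 change 0.40, SE 0.06, adjusted p = 4.73e-05). Pdia4, a disulfide isomerase, rose 1.33-fold. In NBC males against NBC females 6 of the same 29 genes were higher, and Canx was higher by 0.45. Of 25 antioxidant genes 5 fell and 2 rose (28% called, against 16.1% of all genes). But with the GC and length trend removed 0 fell and 1 rose. Without any 1 library other than sPIA female 1, 2 or 3 of them fell. Gpx1, a glutathione peroxidase, fell 1.39-fold and is among the calls lost with that trend removed (adjusted p = 0.0788).

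Activity and steroid response genes had medians below 0. Of 32 immediate early genes, which neurons switch on within minutes of firing, 8 fell and 5 rose (median -0.26). Without mPIA female 3 these were 5 and 3, and 3 rose without sPIA female 2 or sPIA female 3. The share called was 40.6%, against 16.1% of all genes. The 5 that rose were Bdnf, Nr4a3, Klf10, Homer1 and Egr3. Jund (chr8:70698949-70700616, plus strand), an AP-1 transcription factor, had 70.8, 64.3, 69.5 and 71.7 CPM in mPIA and 51.6, 43.6, 38.1 and 45.1 CPM in sPIA, with no overlap (log2 change -0.63, SE 0.10, adjusted p = 0.000131). Nr4a1, an orphan nuclear receptor, fell 1.62-fold and Fosl2, a partner of Jun proteins, fell 1.33-fold. Of 23 glucocorticoid response genes 5 fell and 2, Nr3c2 and Nr3c1, rose (median -0.23), or 3 and 1 without mPIA female 1 or 2. Their share called was 30.4%. Klf15 and Tsc22d3, direct targets of the glucocorticoid receptor, were 1.57-fold and 1.35-fold lower. Of 19 clock genes 3 fell and 2 rose (26.3% called, against 16.1% of all genes), with 0 higher without mPIA female 1, mPIA female 3 or sPIA female 3. Npas2, a partner of the core clock, was 1.69-fold lower. With the GC and length trend removed 4 immediate early genes fell and 2 rose.

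**Figure D3:**
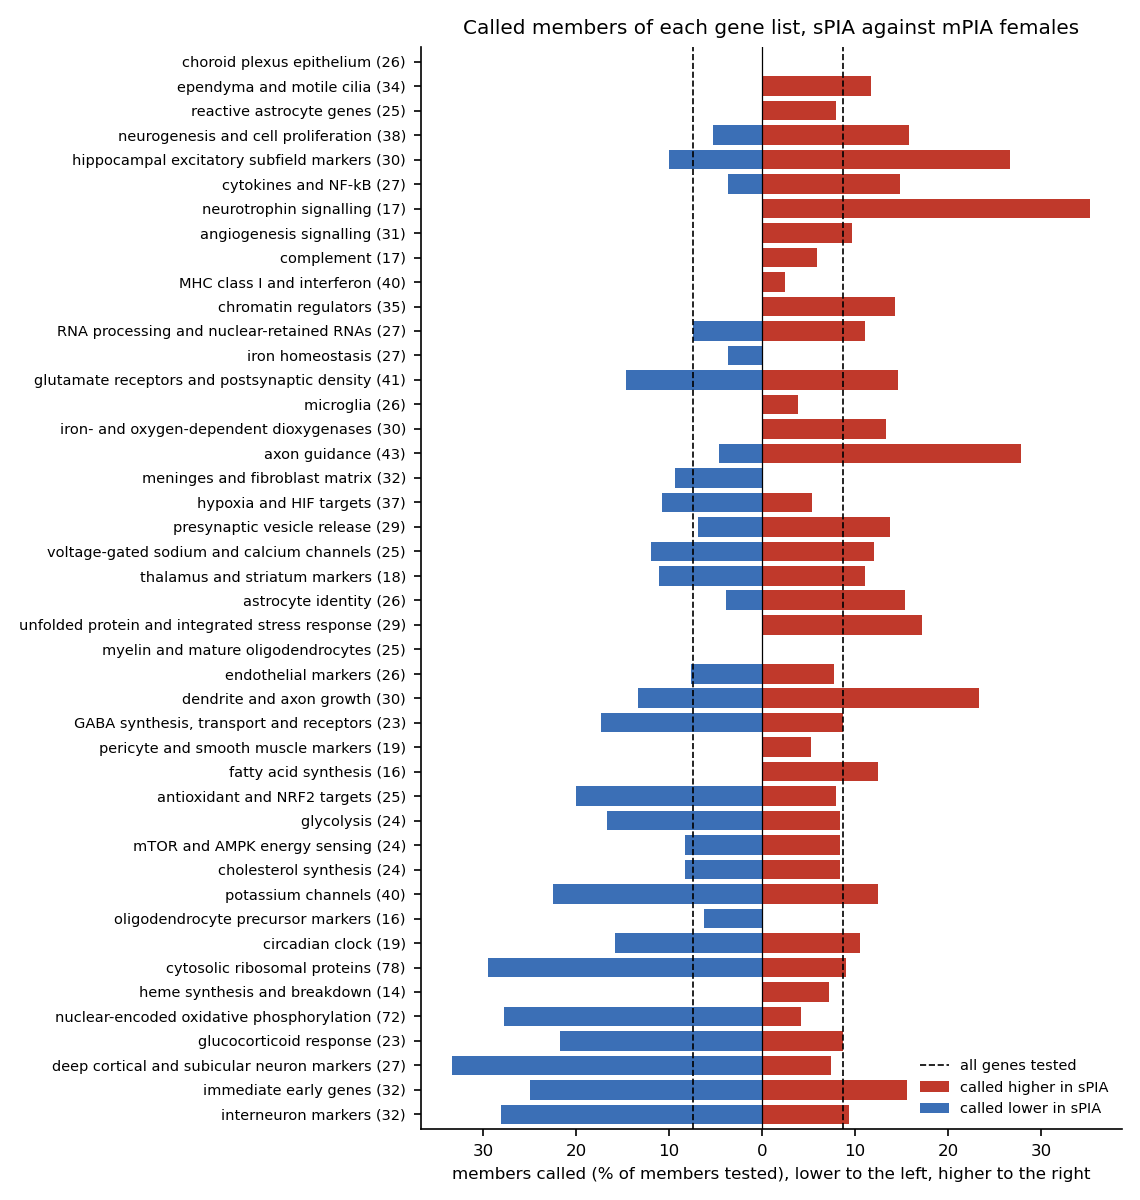
Share of the members of each gene list called lower (left) or higher (right) in sPIA than in mPIA females, in percent of the members tested, for the 44 lists with at least 14 tested genes (number in brackets), ordered by median log2 change. Dashed lines mark the shares over all genes, 7.48% lower and 8.67% higher.

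The genes with the deepest rises were mostly ones whose counts are uncertain. Aldoart1 had 2.25, 2.06, 2.09 and 2.36 CPM in mPIA and 5.41, 5.02, 6.39 and 5 CPM in sPIA, a 2.5-fold rise, but it is a near-identical copy of the aldolase gene Aldoa. Rpl23a, Zxda, Ifi203 and Hmgb1, 2.28-fold, 2.28-fold, 2.17-fold and 2.14-fold higher, have near-identical relatives too, and Mir3064, 2.11-fold higher, lies within a host gene whose reads it shares. Zfp758, a zinc finger gene, and the noncoding Gt(ROSA)26Sor rose 1.95-fold and 1.96-fold. Lrrc23 and Mns1, genes of motile cilia, rose 2.44-fold and 2.04-fold. The call of Lrrc23 was lost without mPIA females 1, 3 or 4 or sPIA female 1 (adjusted p up to 0.124). That of Mns1 was lost without mPIA female 3 or sPIA female 2 (adjusted p up to 0.065) and with the GC and length trend removed (adjusted p = 0.0839).

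Tissue beside the hippocampus was present in unequal amounts. Ttr, the transthyretin gene of the choroid plexus, had 174, 231, 26.4 and 12 CPM in mPIA and 106, 1324, 2.29 and 28.6 CPM in sPIA. The groups overlapped fully, and sPIA female 2 held the bulk of the signal (adjusted p = 0.576). The 26 choroid plexus genes summed to 215 to 549 CPM in moderate and 217 to 2200 CPM in severe anemia, with 0 called and a median of 1.14. With a choroid plexus score as a covariate 2481 genes passed, 2328 of them among the 2499. Of 34 ependyma and motile cilia genes 4 were higher and 0 lower (2 higher without mPIA female 1, 3 or 4 and 1 without sPIA female 1). The share called was 11.8%, against 16.1% of all genes. Their median was 0.62, with sums of 122 to 163 CPM in mPIA against 129 to 217 CPM in sPIA. Their part in the rises of Lrrc23 and Mns1 was not tested.

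The NBC groups and the males place the difference in the series. The 4 NBC females, of the same code series as the mPIA females, had a mean nearer to mPIA than to sPIA females for 2489 of the 2499 genes (99.6%). Against NBC females, 2472 genes passed in sPIA females (16%) and 1 in mPIA females (0.00646%, with 55 at an unadjusted p under 0.05). These comparisons share libraries with the main one, so they add no separate count. Sst changed by -1.22 in sPIA females and 0.00 in mPIA females against NBC females, and Nxph3 by -3.04 and 0.32. In males, 762 genes passed between sPIA and mPIA (4.92%) and 30 between sPIA and NBC (0.194%), the former across code series P and M and the latter within series P. Of the 762, 330 also passed in the same direction in females, 43.3% of the male list and 13.21% of the female list. The difference between the sexes in the sPIA minus mPIA change passed for 30 genes (0.194%), a count that was 0 without mPIA female 1, without sPIA female 3 or without sPIA male 4.

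NBC males and NBC females were not bled, share no library with the comparison and are split by code series in the same way. They do share code prefixes with it, 86, 90 and 91 with the mPIA females and P13 and P14 with the sPIA females. The S numbers of both NBC groups, 38 to 54, all lie above those of the sPIA females, so that split is not repeated here. On the autosomes 1490 of 14918 genes passed between them (9.99%). Of the 2385 autosomal genes called between sPIA and mPIA females, 928 passed here as well, all in the same direction (540 higher and 388 lower in series P), which is 38.9% of the female list and 62.3% of the NBC list. Across all autosomal genes the log2 changes of both comparisons had a Pearson correlation of 0.47 (a description across genes, which are not independent), and 96.2% of the called genes had the same sign in both, against 74.8% of all genes. The correlation of the female change with that of sPIA against mPIA males, across series P and M, was 0.41, and with that of sPIA males against NBC males, all within series P, it was 0.03. NBC males, without anemia, had a mean nearer to sPIA than to mPIA females for 1963 of the 2499 genes (78.6%). Sex differs between the NBC groups as well as code series, and these cannot be told apart.

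An estimate with this NBC change subtracted was added after the data had been seen. It called 0 of 14918 autosomal genes (0%) by edgeR, with 637 at an unadjusted p under 0.05, while limma-voom called 0 and DESeq2 3. Its error is larger, since 4 groups enter. All genes given here had an adjusted p of 0.998. The estimate was -2.40 (SE 0.81) for Nxph3, against -3.36 without the subtraction, and -2.45 (SE 0.80) for Nts, against -3.07. It was smaller by a larger share for Sst, at -0.77 (SE 0.19) against -1.22, Fezf2, at -0.65 (SE 0.20) against -1.17, Neurod1, at 0.45 (SE 0.18) against 0.84, and Kcnv1, at 0.39 (SE 0.13) against 0.74. Atp5g1 and Canx were at -0.08 (SE 0.15) and -0.05 (SE 0.09).

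**Figure D4:**
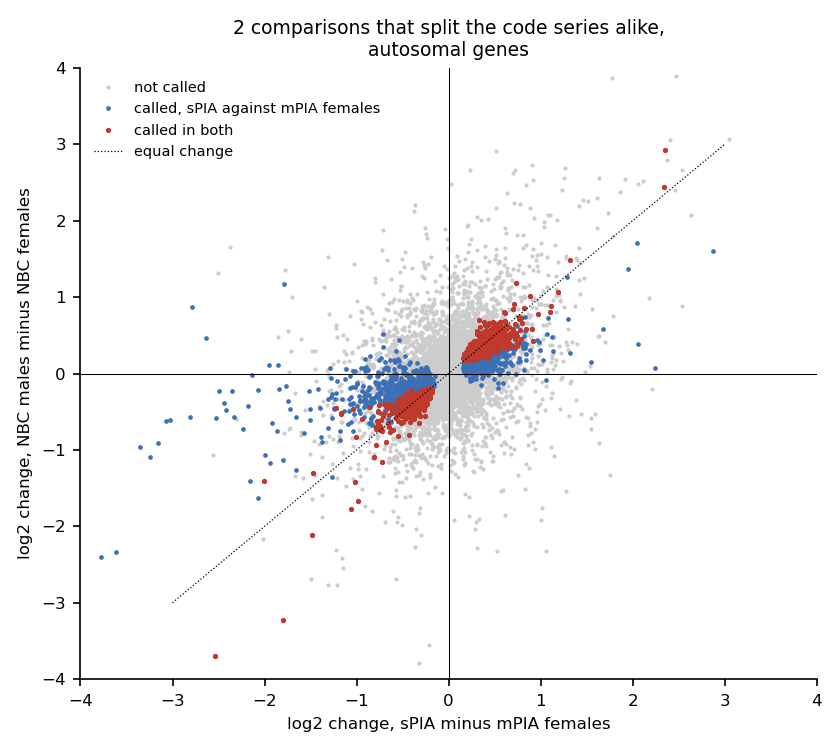
Log2 change of sPIA minus mPIA females (horizontal axis) against that of NBC males minus NBC females (vertical axis), with 1 point per autosomal gene and 8 genes beyond the axes. The 928 genes called in both comparisons lie in the lower left and upper right corners of the plot, and the dotted line marks equal change.

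GC content moved with the difference. The median GC content of the longest transcript was 43% in genes higher in sPIA, 54.9% in genes lower and 49.7% in all genes, and median transcript lengths were 4994, 2679 and 3387 bases. With the genes ordered by GC content and cut into 10 equal bins, in the lowest bin 32.2% were higher and 0.977% lower, and in the highest bin 0.391% were higher and 19.3% lower. With the GC and length trend of each library removed, 1397 genes passed, and 912 of them were among the 2499, all in the same direction. Of the deep cortical and subicular markers 10 of 27 were lower in this setting, 8 of them among the 9 called before (median -0.25). Of the interneuron markers 7 of 32 were lower, 5 of them among the earlier 9, 0 were higher, and the median went from -0.30 to -0.17. Sst changed by -1.01 (adjusted p = 0.000145), Fezf2 by -1.01 (adjusted p = 0.000141) and Nxph3 by -3.13 (adjusted p = 0.00373), whereas the calls of Bdnf, Hif1a, Nrp1 and Gpx1 were lost.

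**Figure D5:**
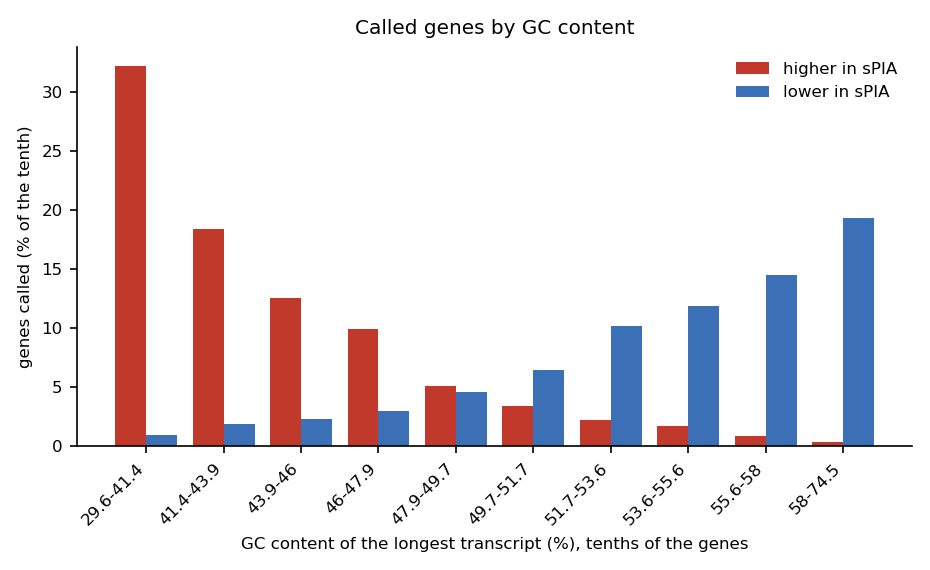
Share of genes called higher and lower in sPIA than in mPIA females, in percent, in 10 equal bins of the genes ordered by GC content of the longest transcript (percent). The share called higher falls from 32.2% to 0.391% from the lowest to the highest bin, and the share called lower climbs from 0.977% to 19.3%.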

How the data were processed

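Per the labels, polyadenylated hippocampal RNA was isolated with the RNAqueous kit and made into Illumina TruSeq libraries. The authors deposited 1 table of whole-number read counts per gene, not normalized, as its values show. The submitters' processing notes name FastQC, TopHat2 2.0.13, Subread, edgeR and build mm10. What each did, the gene annotation, strandedness and how multi-mapping reads were counted were not given in the sources used here. Of 24421 rows 23350 matched a GENCODE M21 symbol, the source of positions, GC content and transcript length, and 27 rows named by a date were left unnamed. All columns matched samples by name, with 0 not used.

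All 23 libraries entered a quasi-likelihood fit of edgeR 4.0.16 (R 4.3.3) with 6 group means, TMM normalization and the filterByExpr filter (minimum count 10, minimum total 15), which left 15475 genes. The Benjamini-Hochberg threshold was 0.05 over all genes of a comparison, and a prior count of 2 entered log2 CPM. Replicates differed by more than counting noise (3.09 to 22.6 for the chi-square statistic over its degrees of freedom), and none was counted as a copy. Totals set the precision, and low genes such as Cort rest on fewer reads. Alternatives used limma 3.58.1 and DESeq2 1.42.0, other filters and scalings, a GC and length correction, a choroid plexus covariate, and each library left out. The fit was tested on simulated counts. Figures were drawn with Python 3.11.15 and matplotlib 3.10.9.

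The comparison, the members and all gene lists were chosen with earlier results of these data known. Named genes were the 10 largest rises and 10 largest falls among called genes with a mean log2 CPM of at least 1 and separate ranges, the called genes of each list with the smallest p, at most 4, and Adm, Vegfa, Kdr, Cxcl12, Tfrc, Slc2a1, Bdnf, Ttr and Xist in any case. Predicted gene models and named pseudogenes were left out, and not all genes so chosen are reported. List counts carry no test of their own. The other named list members, Gad1, Gad2, Pvalb, Slc17a7, Prox1, Cnr1, Dlx6os1, Hs3st4 and Rorb, were added after their values were seen. So were Marcksl1, Stmn1, Gap43, Nr4a3, Klf10, Homer1, Egr3 and Nr3c1.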

Additional observations from a re-analysis of the deposited data

Results flagged for a closer look

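In 10 of 180 groups of 4 libraries, taken over 90 of the named genes, 1 library stood apart from the other 3 by Dixon's criterion, which chance gives in about 5% of groups. The largest gap was that of Ttr in sPIA female 2, at 1324 CPM against 2.29 to 106 CPM in the other sPIA females. The same library was the high 1 of its group for Npy, at 32.3 CPM against 22.2 to 23.9, for Lamp5, at 19.5 CPM against 15.4 to 16.1, and for Fosl2, at 60.4 CPM against 50.5 to 51.4. Among the other sPIA females, female 1 had 139 CPM of Cox5b against 110 to 111, and female 3 had 75.4 CPM of Kcnv1 against 69.8 to 70.5. Among mPIA females, female 4 had 149 CPM of Grin3a against 111 to 116 and 44.5 CPM of Neurod1 against 37.7 to 38.4. Female 1 had 9.69 CPM of Rbp4 against 7.43 to 7.73 and 97.8 CPM of Cxcl12 against 88 to 89. In Cox5b, Fosl2, Npy, Lamp5, Neurod1 and Cxcl12 the library that stood apart was the nearest of its group to the other group.

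The sPIA minus mPIA change differed between the sexes for 2 of these 90 genes by edgeR's test of the difference itself. The log2 change was larger in females by 1.26 in Rpl23a (adjusted p = 0.0293) and by 0.43 in Kcna1 (adjusted p = 0.0346). Both calls were lost without mPIA female 1, mPIA male 1, sPIA female 3 or sPIA male 4. For Rpl23a, mPIA male 1 had 23.5 CPM against 11.9 to 12.5 CPM in the other mPIA males. The male change is across code series P and M and the female change across P and number codes. Rpl23a has near-identical copies, so its count is uncertain.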

How the results depend on the processing

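The count of genes called between sPIA and mPIA females was 2499, and 1582 (without mPIA female 1) to 2769 (without sPIA female 1) with each library left out. It was 266 against a change of at least 1.2-fold, 1397 with the GC and length trend removed and 0 with the NBC male minus female change subtracted. In the other planned settings it stayed between 2248 and 3312. The sex difference, 30 genes, gave 49 with the GC and length trend removed and 169 by DESeq2, and 0 to 78 with each library left out (1364, 1469 and 1438 genes at an unadjusted p under 0.05 where it was 0). Genes called between NBC males and NBC females, 1490, were 559 with the GC and length trend removed, 563 with the choroid plexus covariate, 627 with only these groups fitted, and 411 (without NBC male 4) to 2050 (without NBC male 2) with each library left out. Causes were not tested.

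With a replicate block the counts were 2412, 24 and 1118, and Lrrc23 lost its call (adjusted p = 0.0565). Same-numbered libraries did not deviate together (correlations of 0.033, 0.018, -0.063 and 0.049, with 1 of 4 closest to its own number). These correlations over all genes cannot exclude a weak link between pups, and a link through the code prefix was not tested. Among the same 90 genes, Xist (-0.07 with the GC and length trend removed) and Ttr (-1.29 with the choroid plexus covariate, -0.07 by limma-voom, and -1.28, without sPIA female 2, to 2.38 with each library left out) changed sign, neither called in any of these. Against a change of at least 1.2-fold 35 lost their call. Depth limits low genes: Mir3064, Mns1 and Lrrc23 had about 2 CPM in mPIA.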
